A study of Mus musculus with 3 samples.

Results

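Type I and type II interferon receptors, the Janus kinases (JAKs) bound to them and a set of signal transducer and activator of transcription (STAT) proteins were followed in RNA bound to chromatin of mouse macrophages. The members were 10 genes taken by symbol from the 55536 annotated mouse genes in the tables: the receptor genes Ifnar1, Ifnar2, Ifngr1 and Ifngr2, the kinase genes Jak1, Jak2 and Tyk2, and the STAT genes Stat3, Stat5a and Stat6. All 10 were found in all 3 libraries. The cells were primary macrophages cultured from the bone marrow of C57BL/6J mice and exposed for 25 min to Lipid A at 100 ng/ml. Lipid A is the membrane anchor of bacterial lipopolysaccharide and the ligand of TLR4. RNA that stays with chromatin includes much nascent and partly spliced RNA, and it was sequenced after depletion of ribosomal RNA; the labels give no age or sex for the animals. Replicates 1, 2 and 3 started from 1000, 250 and 500 ng of RNA. They form 1 group and no control is analysed here, so nothing here shows induction by the stimulus. In the labels the 3 libraries share a donor entry, which does not tell whether they came from separate animals, so p-values measure only the spread between these samples, which may be technical.

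Interferon alpha and beta bind a receptor built from the Ifnar1 and Ifnar2 products, and interferon gamma binds one built from the Ifngr1 and Ifngr2 products. The receptors have no kinase activity of their own: Tyk2 and Jak1 serve the type I receptor, Jak1 and Jak2 the type II receptor, and the activated kinases phosphorylate STAT proteins, which enter the nucleus and bind DNA. Stat3 is best known downstream of interleukin 6 and interleukin 10, Stat5a downstream of GM-CSF, and Stat6 downstream of interleukin 4 and interleukin 13. In macrophages these pathways shape antiviral, inflammatory and alternative activation states.

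The libraries held 13525994, 19230763 and 19207049 expected counts in replicates 1, 2 and 3. A ribosomal DNA locus took 8.46%, 27.1% and 23.1% of them. In TPM (a level scaled for gene length and library size) its share was 7.85%, 27.2% and 23.8%. From that share, the level of every other gene would rise by 0.12, 0.46 and 0.39 on the log2 scale without the locus. All 9 macrophage markers reached 10 TPM. Of 27 markers of T, B, NK, neutrophil, erythroid, stromal and endothelial cells, 12 had no counts and 2 reached 1 TPM, Kdr and Ngp, and the summed level of the 27 was 10.7, 7.34 and 11.2 TPM. The part of other cells in the levels below was not tested.

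Promoter sequences and 1 splice junction are shown because the transcript results turn on where Stat5a starts and how Stat3 is spliced, and because the promoter matches are in the receptor and kinase genes. RefSeq promoter windows (build GRCm38.p6, the mm10 assembly) were found for all 10 genes, 11 windows in all because Stat5a had 2, each running from 250 bases before to 50 bases after a start. The 250 bases before the start are printed, 5′ to 3′, with matches to a GAS element (TTCNNNGAA, the element STAT dimers bind) or a CRE (TGACGTCA) in capitals. The matches in the 2 type I receptor genes and in Jak1 come first, and the 2 alternative starts of Stat5a follow.
Ifnar1 (chr16:91484965-91485214, plus strand): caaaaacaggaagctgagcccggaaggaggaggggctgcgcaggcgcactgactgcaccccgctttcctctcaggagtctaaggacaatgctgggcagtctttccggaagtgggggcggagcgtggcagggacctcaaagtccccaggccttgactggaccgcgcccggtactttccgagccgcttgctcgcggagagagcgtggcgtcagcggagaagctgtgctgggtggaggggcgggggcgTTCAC
Ifnar2 (chr16:91372533-91372782, plus strand): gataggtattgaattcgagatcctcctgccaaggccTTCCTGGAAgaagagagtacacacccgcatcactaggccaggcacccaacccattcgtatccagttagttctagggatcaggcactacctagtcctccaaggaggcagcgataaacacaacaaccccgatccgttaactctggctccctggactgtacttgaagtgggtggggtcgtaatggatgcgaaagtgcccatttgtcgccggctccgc
Jak1 (chr4:101265224-101265473, minus strand): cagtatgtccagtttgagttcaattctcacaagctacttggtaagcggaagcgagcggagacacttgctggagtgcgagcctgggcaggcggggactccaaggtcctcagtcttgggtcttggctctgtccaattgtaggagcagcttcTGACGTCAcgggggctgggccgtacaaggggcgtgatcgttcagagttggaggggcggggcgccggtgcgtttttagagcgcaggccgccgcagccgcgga
Stat5a, first start (chr11:100859406-100859655, plus strand): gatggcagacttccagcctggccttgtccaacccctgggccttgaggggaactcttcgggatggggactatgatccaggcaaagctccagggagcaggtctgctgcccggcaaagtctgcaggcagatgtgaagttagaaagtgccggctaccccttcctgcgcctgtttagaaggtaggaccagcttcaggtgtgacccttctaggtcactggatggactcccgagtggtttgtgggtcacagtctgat
Stat5a, second start (chr11:100860234-100860483, plus strand): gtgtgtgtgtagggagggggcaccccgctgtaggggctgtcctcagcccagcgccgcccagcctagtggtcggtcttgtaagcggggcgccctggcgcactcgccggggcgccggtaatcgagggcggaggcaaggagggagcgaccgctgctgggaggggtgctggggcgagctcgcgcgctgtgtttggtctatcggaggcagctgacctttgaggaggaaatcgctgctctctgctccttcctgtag
The Ifnar1 match continues past the start, so only its first part is printed. GAS was found on either strand in 2 of the 11 windows, against 8.30% of the 32851 windows in the table. CRE was found in Jak1 alone, against 1.79% of all windows. The start used for Jak1 is at 101265223, the first base of the noncoding model Jak1-203. Jak1-201, which took 88.5% of the gene's transcript counts, starts further upstream at 101265282. Some of the bases printed before the start therefore lie inside Jak1-201, but the CRE lies before both starts. The interferon-stimulated response element core (GAAA, any 2 bases, GAAA; 3.44% of all windows), a kappaB element (GGGNNTTCC, 5.82%) and a TATA box (TATAAA, 13.6%) were in none of the 11. The GC box (GGGCGG) was in 9 of 11 windows, one for each member but Stat6, against 35.7% of all windows. The GC box and CRE do not overlap in Jak1, and both strands were searched for each element. These are matches of letters, and no match says only that these letters are not in this window. CpG counts per window ran from 5 in the first Stat5a window and 8 in Stat6 to 44 in Jak2, and 10 of the 11 windows exceeded the median of 7 over all windows. The second Stat5a window held 27 CpG.

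Stat3 gives a pair of long-known proteins, alpha and beta, by a choice of splice acceptor in exon 23. The annotated coding model of 770 amino acids keeps 50 bases at the start of that exon (chromosome 11, 100889478 to 100889590 on the minus strand), and the model of 722 amino acids starts the exon further in (100889478 to 100889540). The spliced sequence around the junction is printed with the 50 bases in capitals and 30 bases on each side.
Stat3-203, 770 amino acids: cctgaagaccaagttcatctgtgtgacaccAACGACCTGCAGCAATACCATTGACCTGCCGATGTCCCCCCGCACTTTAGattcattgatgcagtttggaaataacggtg
Stat3-202, 722 amino acids: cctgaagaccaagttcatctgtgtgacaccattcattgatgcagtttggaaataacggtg

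All 10 genes were detected in the stimulated macrophages, and each had a mean level above the median of 14.1 TPM over the 13775 genes with at least 10 counts in every library. For 7 of the 10 the mean also exceeded the upper quartile of 39.0 TPM. The median of the 10 means was 96.6 TPM. No other group was measured, so the ranking describes these cells only.

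Among the receptors, Ifngr1, the ligand-binding chain of the interferon gamma receptor (chromosome 10, 19591949 to 19610229), stood at 198, 102 and 116 TPM in replicates 1, 2 and 3. Its mean was 139 ± 51.5 TPM (SD, n = 3), with 1086, 850 and 932 counts behind it. Replicate 1 was the high library, and its span between libraries was wider than that of 80.6% of the same genes. Ifnar1, the chain that carries Tyk2 (chromosome 16, 91485238 to 91507441), was at 141, 119 and 96.1 TPM, a mean of 119 ± 22.3. Ifnar2, the chain that binds interferon first and carries Jak1 (chromosome 16, 91372783 to 91405589), was at 122, 90.4 and 88.4 TPM, a mean of 100 ± 18.9. The ranges of Ifnar1 and Ifnar2 overlapped, although Ifnar1 was the higher in all 3 libraries. Ifngr2, the second chain of the interferon gamma receptor that carries Jak2 (chromosome 16, 91547072 to 91565623), was at 29.4, 19.6 and 21.9 TPM, a mean of 23.6 ± 5.10, below every library of the other receptors.

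The kinases split into a pair at higher levels and Jak2. Tyk2 (chromosome 9, 21104068 to 21131243) was at 95.9, 85.1 and 97.4 TPM, a mean of 92.8 ± 6.71. Relative to its mean this was the smallest SD of the 10, but not without the ribosomal DNA locus, where Tyk2 was at 116 ± 11.9 and Stat6 at 238 ± 4.39. Jak1, used by both interferon receptors (chromosome 4, 101152367 to 101265282), was at 87.4, 63.0 and 71.1 TPM, a mean of 73.8 ± 12.5. Jak2 (chromosome 19, 29251828 to 29313080) was at 24.5, 14.2 and 21.4 TPM, a mean of 20.0 ± 5.33, the lowest of the 10 genes. Each Jak2 library was below each Jak1 and Tyk2 library.

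Among the STATs, Stat6 (chromosome 10, 127642986 to 127660957) was at 215, 176 and 182 TPM, a mean of 191 ± 20.9, the highest of the 10. Stat3 (chromosome 11, 100885098 to 100939540) was at 181, 182 and 116 TPM, a mean of 160 ± 37.7, with replicate 3 the low library. Stat5a (chromosome 11, 100859351 to 100885169) was at 25.9, 22.6 and 29.8 TPM, a mean of 26.1 ± 3.61. Its libraries lay below all those of Stat3 and Stat6, whose ranges overlapped.

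**Figure D1:**
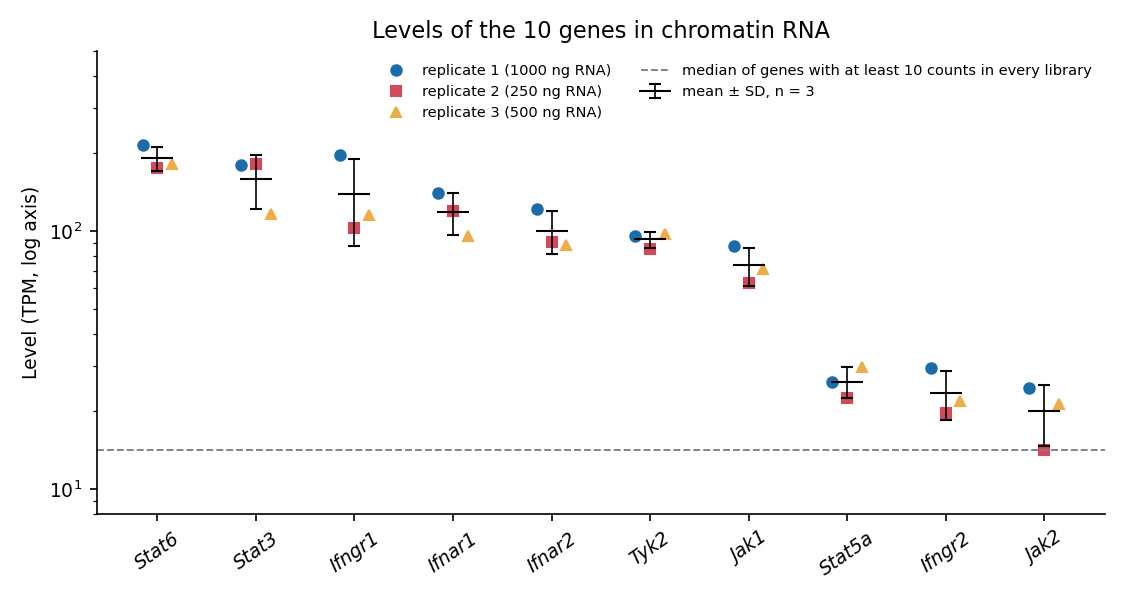
Level of each gene in TPM on a log axis, with a symbol for each library, the mean ± SD over 3 libraries and a dashed line at the median (14.1 TPM) of genes with at least 10 counts in every library. Only the step from Jak1 to Stat5a separates neighbours whose ranges do not overlap.

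In the order of means, Stat6, Stat3, Ifngr1, Ifnar1, Ifnar2, Tyk2, Jak1, Stat5a, Ifngr2 and Jak2, ranges overlapped in 8 of 9 neighbouring pairs. The exception was Jak1 over Stat5a, a ratio of 2.83. Replicate 1 held the highest value for 7 of the 10 genes, as it did for 61.5% of all genes with at least 10 counts. Without the ribosomal DNA locus it was highest for 4 of the 10, against 41.7% of those genes.

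Ratios within a library do not depend on that locus. Ifngr1 exceeded Ifngr2 by 6.72, 5.22 and 5.29 times in replicates 1, 2 and 3, a log2 ratio of 2.51 ± 0.21 (SD, n = 3). That log2 ratio was 1.14 in the second deposited estimate, a kallisto-type transcript table, and 0.71 in CPM without gene length. With protein-coding transcripts alone Ifngr1 was at 34.2 ± 6.28 TPM and Ifngr2 at 20.8 ± 5.80. Transcript models that keep an intron took 63.5% of the transcript TPM of Ifngr1, and Ifngr2 has no such model. The part of these models in the ratio was not tested. Ifnar1 and Ifnar2 were closer, with a log2 ratio of 0.24 ± 0.14. Jak1 exceeded Jak2 with a log2 ratio of 1.91 ± 0.22, and Stat3 exceeded Stat5a with one of 2.59 ± 0.56. Stat5a lay below Stat6 in every library, with a log2 ratio of -2.88 ± 0.23. Jak1 lay below Tyk2 (log2 ratio -0.34 ± 0.18) and Stat3 below Stat6 in replicates 1 and 3 (mean -0.28 ± 0.35), but both orders turned in the second deposited estimate, to 0.87 and 0.46. With 3 libraries no exact sign test can pass a threshold of 0.05, and none was made.

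The second estimate, a transcript table with the column names of kallisto, moved single genes by more than the spread between libraries. Ifngr2 was at 75.6 ± 13.3 TPM there, Jak1 at 133 ± 41.5 and Stat3 at 277 ± 74.1, which placed Stat3 first. Stat5a, at 22.4 ± 1.68, moved by slightly more than its SD, and Stat6 (196 ± 10.1) and Jak2 (17.8 ± 5.12) by less than theirs. Counting protein-coding transcripts alone gave another order, led by Stat6 at 117 ± 8.25 TPM and Ifnar2 at 100 ± 18.9. Stat3 was at 32.4 ± 1.43 there and Ifngr1 at 34.2 ± 6.28. Ifnar2 and Jak2 have coding models only, so their levels are unchanged there by construction. Levels of Stat3, Ifngr1, Ifnar1, Stat6, Tyk2, Jak1 and Stat5a moved by more than their SD with coding transcripts alone. Tyk2 was then at 68.2 ± 5.29 TPM, Jak1 at 49.8 ± 6.97 and Stat5a at 17.4 ± 0.41. The levels of these genes therefore hold only for the transcripts counted.

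**Figure D2:**
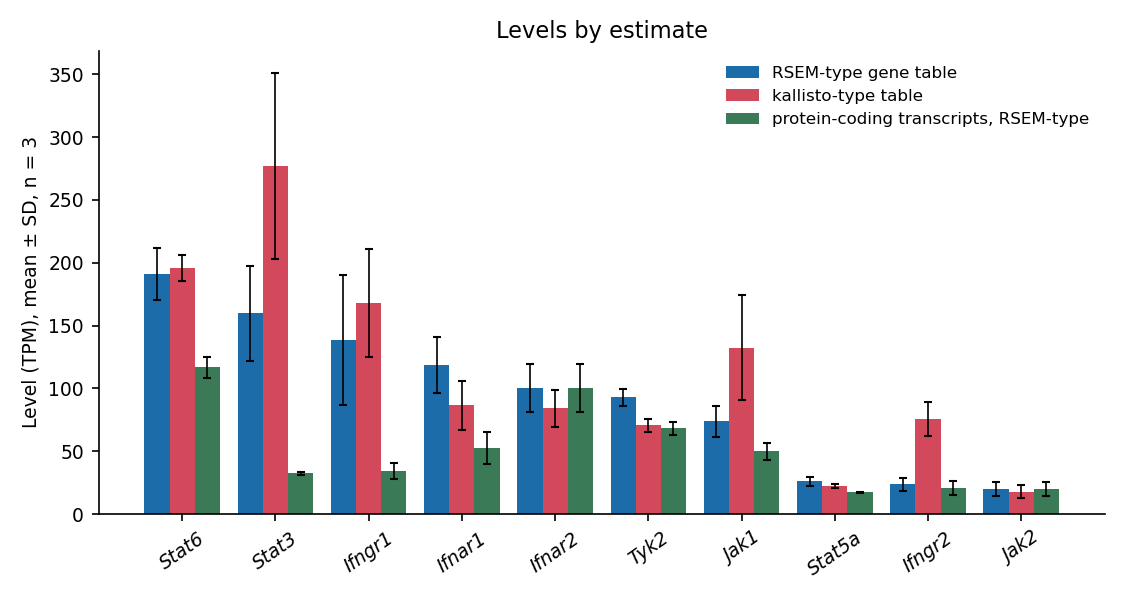
Mean level in TPM ± SD over 3 libraries under 3 estimates: the RSEM-type gene table, the kallisto-type table, and protein-coding transcripts alone. Stat3 is at 160, 277 and 32.4 TPM under the 3 estimates, while Jak2 is at 20.0, 17.8 and 20.0. Jak2 has coding models only, so its gene and coding-only levels are the same by construction.

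In chromatin RNA, introns not yet removed can be counted on transcript models that keep an intron. Such retained-intron models took 38.9% ± 3.76 of the transcript counts of Ifnar1, 37.5% ± 5.43 of Stat3, 31.9% ± 2.04 of Ifngr1, 16.0% ± 3.12 of Tyk2 and 6.86% ± 1.25 of Stat6 (SD, n = 3). The other 5 genes have no retained-intron model, so a share of 0 there is set by the annotation. Over the 6733 genes with such a model and at least 50 counts the median share was 26.3%, and the median of the 5 members was 31.9%. As a share of TPM, which divides counts by transcript length, the members' median was 53.5%. It was 77.8% for Stat3, 63.5% for Ifngr1, 53.5% for Ifnar1, 38.8% for Stat6 and 26.5% for Tyk2. The share of TPM was not computed over all genes, so these values cannot be set against the 26.3%.

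**Figure D3:**
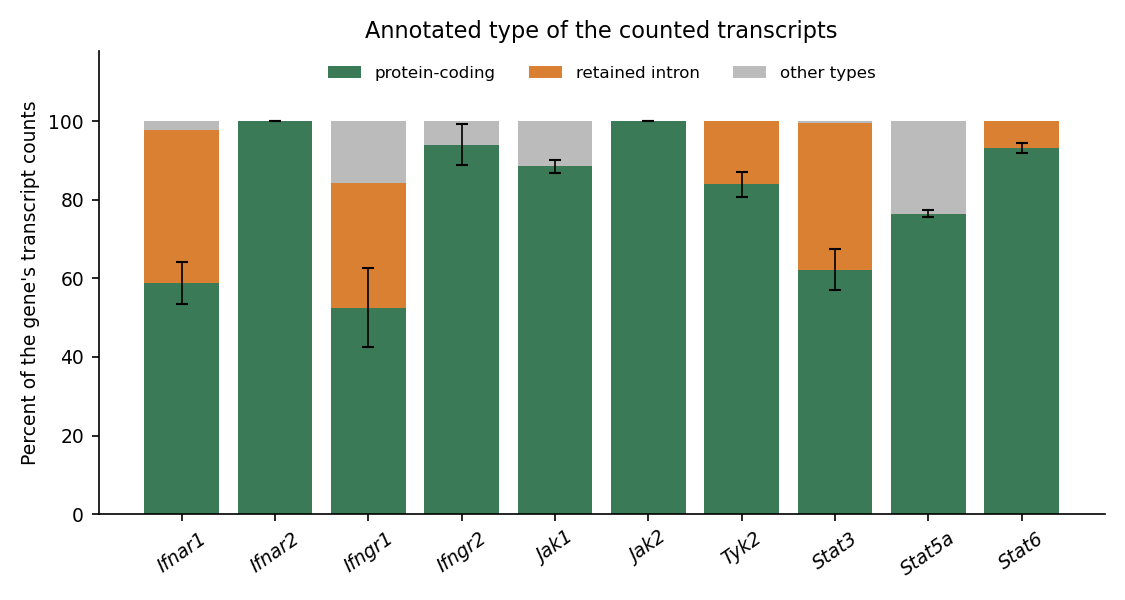
Percent of each gene's transcript counts on protein-coding, retained-intron and other models, mean over 3 libraries, with the SD of the protein-coding share as bars. Retained-intron models hold over 30% in Ifnar1, Ifngr1 and Stat3, and Ifnar2 and Jak2 have coding models only.

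Ifnar1 has 1 annotated retained-intron model, Ifnar1-205, which covers the first part of the gene and took 843, 1260 and 869 counts in replicates 1, 2 and 3. For Stat3, 9 retained-intron models are annotated, and Stat3-208 alone took 21.5% ± 2.56. In Stat5a the rest of the counts lay on noncoding processed models, 23.5% ± 0.88, and in Jak1 11.5% ± 1.63.

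The Stat3 model with the shorter protein (beta) took 32.5%, 28.2% and 25.5% of the gene's transcript counts in replicates 1, 2 and 3, and the 770-amino-acid model took 25.0%, 17.7% and 32.4%. The coding model of 769 amino acids, took 2.89%, 9.07% and 10.2%. The ranges of the first 2 overlapped, and in replicate 3 the order turned. The shares do not read the splice choice alone: 1712 of the 6042 exonic bases of the beta model, all in its last exon, lie in no other Stat3 model. In the kallisto-type table the beta model took 14.4% ± 1.15 and the 770-amino-acid model 18.3% ± 6.53.

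Ifnar2 makes a full-length receptor chain and shorter forms that end before the cytoplasmic part. The full-length model (513 amino acids) took 81.2%, 69.0% and 82.2% of its counts. Of the shorter ones, the 248-amino-acid model took 12.9%, 8.13% and 9.67%, and the 247-amino-acid model 0%, 17.1% and 3.39%, the last with a wide spread between libraries. The kallisto-type table gave 59.8% ± 2.96 to the full-length model and 21.9% ± 1.25 to the 248-amino-acid one.

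The 2 Stat5a starts shown above coincide with the first bases of Stat5a-202 and Stat5a-203. Stat5a-202 took 33.3%, 42.9% and 62.3% of the gene's counts in replicates 1, 2 and 3, and Stat5a-203 39.8%, 30.3% and 11.4%. The noncoding processed model Stat5a-207 begins at 100860485, beside the second start at 100860484. It took 19.5%, 21.4% and 16.2%, so the shares of Stat5a-202 and Stat5a-203 do not rank the 2 starts. The posterior SD deposited with the counts was 51.1, 66.4 and 51.4 counts for Stat5a-202, on 148, 276 and 367 counts. For Stat5a-203 it was 49.1, 63.2 and 47.6 counts, on 177, 195 and 67.2 counts, so both estimates were uncertain. In the kallisto-type table Stat5a-202 took 30.9% ± 4.99, Stat5a-203 29.9% ± 5.03 and Stat5a-207 30.7% ± 1.77. The RSEM-type and kallisto-type tables named the same main transcript for 7 of the 10 genes, the exceptions being Ifngr1, Jak2 and Stat3.

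Several members share neighbourhoods. Ifnar2, the interleukin 10 receptor gene Il10rb, Ifnar1 and Ifngr2 lie in that order on chromosome 16, all on the plus strand, with gaps of 0.574, 59.4 and 39.6 kb. Il10rb was at 165, 117 and 121 TPM, near Ifnar1 and above Ifngr2 in each library. On chromosome 11, Stat5b, Stat5a and Stat3 are neighbours, and the 3′ ends of Stat5a and Stat3 overlap by 72 bases on opposite strands. Stat6 overlaps Nab2 by 40 bases and Jak1 overlaps Raver2 by 4, also on opposite strands. Whether the counting used strand is not stated, so the strand of reads in these overlaps is not known. The posterior SD deposited with the gene counts was 0 in all 3 libraries for Stat3, Jak1 and Stat6. For Stat5a it was at most 0.622% of the count. The part of these overlaps in the counts was not tested. Gm21970 overlaps Ifnar2 on the same strand, and 1700084C06Rik overlaps Tyk2 on the other, each with 0 counts.

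The RNA amount was the only labelled difference between libraries. The question was which genes differed with it, by edgeR's quasi-likelihood test with Benjamini-Hochberg adjustment over 13993 genes. None of the 10 members was called in either direction, where 4.52% of all genes tested were called higher with more RNA and 2.85% lower. At an unadjusted p under 0.05 there was 1 member, Ifngr1, where 3231 of the 13993 genes were. DESeq2 called 0 of the 10, where it called 373 of the 8086 genes that were given an adjusted p. At an unadjusted p under 0.05 it had 0 members and 1756 genes. These were counted over all genes with a p-value, not only those 8086. There is 1 library per amount and 1 residual degree of freedom, so amount and library cannot be told apart, and a call that misses the threshold does not show that a gene did not differ. The 2 forms of edgeR's filter on low counts, each with and without the length limit, gave 661 to 1101 genes called of 13993 to 15077 tested, and no member was called under any of them. The form used here was chosen after the others had been run.

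Ifngr1 had the largest change of the 10 in the fit of all 3 libraries, 0.31 log2 units per doubling of RNA (SE 0.14, adjusted p = 0.154, edgeR), with 74.2, 48.3 and 51.2 TMM-scaled CPM, which corrects counts for library size, in the order of the replicates. Replicate 1 was high and the other libraries were close together. Between the 2 libraries left, the change of Ifngr1 was 0.085 without replicate 1. There Stat3, Jak2, Ifnar1, Stat5a, Ifngr2 and Jak1 had changes of larger size. Without replicate 2 the change of Ifngr1 was 0.54. Tyk2 went the other way, by -0.24 (SE 0.13, adjusted p = 0.286, edgeR), with 116, 161 and 161 TMM-scaled CPM. The change of the other 8 lay between -0.15 and 0.18. Of the 10, 5 were positive, as were 48.6% of all genes tested.

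**Figure D4:**
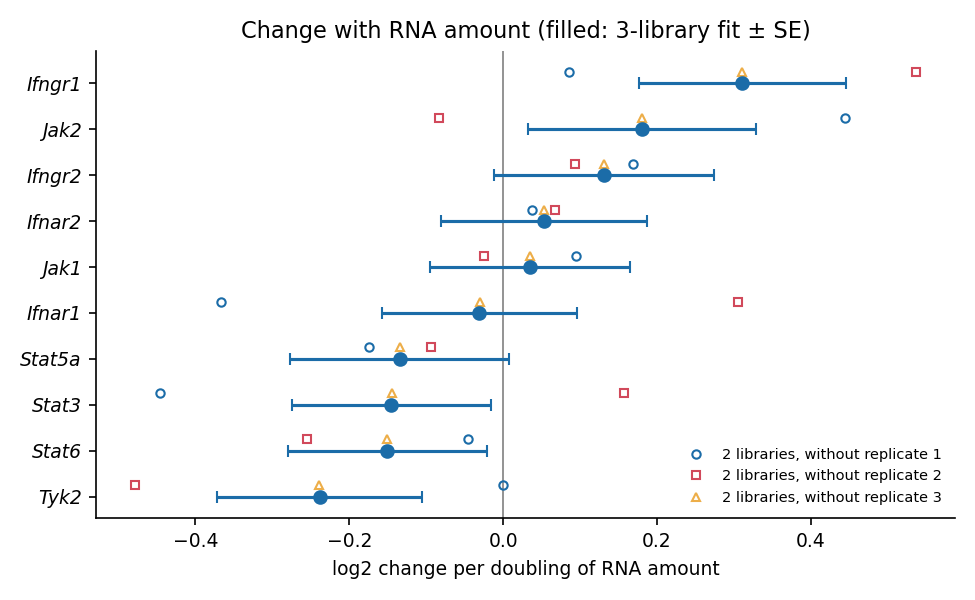
Change per doubling of RNA amount on the log2 scale: filled points are the 3-library fit with its SE, open symbols the change between the 2 libraries left when 1 is left out. Leaving out replicate 2 turned the direction of Ifnar1, Jak1, Jak2 and Stat3, and leaving out replicate 1 brought Tyk2 to 0.00026.

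The partners of the members were read from lists of pathway genes. Stat2, which signals from the type I receptor, was at 249 ± 25.3 TPM, its DNA-binding partner Irf9 at 45.6 ± 5.29 and Stat4 at 1.56 ± 0.99. Of the 6 other STAT, JAK and IRF9 genes tested, 1 was called, Jak3, the kinase of the common gamma chain receptors. It was lower with more RNA (-0.50 log2 units per doubling, adjusted p = 0.0468, edgeR). Among all genes tested, 2.85% were called lower and 4.52% higher. The levels of Jak3 were 28.8, 42.8 and 49.0 TPM in replicates 1, 2 and 3. Only replicate 1, with the most RNA, was low, and Jak3 did not fall from 250 to 500 ng. Jak3 was not called when the filter used the design.

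The ligand genes were scarcely detected. Of 20 interferon genes, 18 had no counts, among them Ifnb1 and Ifng, which allows up to 0.222, 0.156 and 0.156 CPM in replicates 1, 2 and 3, counting error only. The highest was Ifnk at 7.48, 0.777 and 3.25 TPM, and Ifna12 was next at 0.0657 ± 0.11. None of the 20 was tested.

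Other receptors that signal through JAKs included genes with a mean above that of every member. In replicate 1, however, Csf2ra was at 195 TPM, below Stat6 at 215 TPM. Csf2rb, the shared beta chain of the GM-CSF receptor, stood at 301 ± 95.1 TPM, Csf2ra at 283 ± 79.7 and the interleukin 10 receptor chain Il10ra at 271 ± 77.4, while Ifnlr1, the receptor chain for type III interferon, was at 0.0338 ± 0.030. Of the 20, 13 reached 10 TPM. Among the 17 tested, Il2rg (0.68, adjusted p = 0.00587) and Lifr (0.53, adjusted p = 0.0298) were higher and Csf2ra (-0.53, adjusted p = 0.0128) lower with RNA amount by edgeR. That compares with 4.52% of all genes tested called higher and 2.85% lower. In replicates 1, 2 and 3 Il2rg was at 82.2, 24.3 and 26.6 TPM, so replicate 1 stood apart. Lifr was at 9.91, 4.17 and 5.93 TPM and Csf2ra at 195, 350 and 304. Lifr was not called when the filter used the design and genes of any length.

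By mean level the negative regulators were led by Socs3 (94.2 ± 62.4 TPM), which blocks JAKs at the interleukin 6 receptor. It was at 163, 40.9 and 79.0 TPM in replicates 1, 2 and 3. The phosphatase gene Ptpn1 followed (86.9 ± 24.6), at 114, 66.0 and 80.7 TPM, above Socs3 in replicates 2 and 3. Next was the adaptor gene Sh2b3 (51.3 ± 2.99), and Socs1 was lowest at 0.556 ± 0.16. Of 15 tested, Socs3 was called higher with more RNA (0.81 log2 units per doubling, adjusted p = 0.00013, edgeR). Pias4 was called lower (-0.65, adjusted p = 0.0172, edgeR), with 21.1, 34.2 and 31.8 TPM in replicates 1, 2 and 3. The shares over all genes tested were 4.52% higher and 2.85% lower. Amount and library cannot be told apart in these calls. For genes of the lists, calls by DESeq2 and from the kallisto-type table were not examined. The median level over the list was 21.3 TPM, against 96.6 TPM for the 10 members. It was 42.9 TPM over the other STATs, JAK and IRF9 and 32.2 TPM over the other receptors that use JAKs. With coding transcripts alone the members' median was 42.0 TPM, and the lists were not computed that way.

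Likeness over only 3 libraries is common. The genes whose pattern over libraries was nearest to Ifngr1 were Rnf150, Usp15 and A530017D24Rik, at Euclidean distances of 0.0071, 0.011 and 0.012 on the log2(TPM + 1) scale, but 253 of 8185 genes lay within 0.1. Nearest to Tyk2 were CAAA01118383.1, Abcc4 and Fbxo42, with 450 of 8185 within 0.1.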

How the data were processed

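Chromatin RNA was measured in 3 libraries of 1 group. The authors deposited, per the file headers, gene and transcript tables with expected counts, TPM and posterior SD (column names of RSEM) and a transcript table with estimated counts and TPM (column names of kallisto), on mm10 with annotation M21. No source used here names the aligner, its version or the strand setting. The members and lists were chosen with earlier results of these data known.

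TPM were recomputed from the deposited expected counts over genes of at least 300 nt. Expected counts were rounded and tested with edgeR 4.0.16 (TMM, filterByExpr, R 4.3.3) against log2 RNA amount, and checked on simulated counts. DESeq2 1.42.0 was an alternative. The filter was first run with the design and genes of any length, then with 1 group and genes of any length, and then with 1 group and the length limit, which is reported. That choice was made after the earlier results had been seen, to follow an earlier treatment of these data, and all forms are given in the closing section. Retained-intron shares needed at least 50 counts. The counting floor was 3 counts. Genes were named by rule: all members, the 3 highest and the lowest of each list, and the 3 nearest in pattern to the members of widest and narrowest span; genes called with RNA amount, Il10rb and overlapping neighbours were named after their values were seen, and 1 gene that the rule names is not reported here. Python 3.11.15, pandas 2.3.3 and matplotlib 3.10.9 were used.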

Additional observations from a re-analysis of the deposited data

How the results depend on the processing

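With 3 libraries, 1 per RNA amount, the data limit what can be said. No member was called with RNA amount under any of the 8 other fits. The number of all genes called was 1032 of 13993 as reported. It was 661 of 15077 with the first form run (filter using the design, genes of any length), 741 of 14944 with that filter and the length limit, 1101 of 14108 with the filter reported and genes of any length, 373 with DESeq2 and 369 with the kallisto-type table; the cause was not tested. The adjusted p of Ifngr1 ran from 0.141 to 0.309. The reported form was itself chosen after the first form and the form with genes of any length had been seen. The design filter with the length limit, and coding transcripts only, were added after seeing the data. Leaving out 1 library at a time turned the change with RNA amount of 5 members, Tyk2 without replicate 1 and the other 4 without replicate 2. Leaving out replicate 3 could hardly turn any, because 500 ng lies midway between 250 and 1000 ng on the log2 scale. The changes without it were nearly those of the full fit. The ranges were as follows for Ifnar1 (-0.37 to 0.31), Jak1 (-0.025 to 0.095), Jak2 (-0.084 to 0.44), Stat3 (-0.45 to 0.16) and Tyk2 (-0.48 to 0.00026); these have no test. Ifngr1 ran from 0.085 to 0.54.

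The median level of the members, 96.6 TPM, was 34.9 on the deposited TPM and 34.9 with genes of any length, which only changes the total, 120 without the ribosomal DNA locus, 85.2 in the kallisto-type table and 42.0 with coding transcripts only. The order of the members was the same on the first 3 of these. The median retained-intron share became 53.5% as a share of TPM. In CPM without gene length the log2 ratios were 1.14 (Ifnar1/Ifnar2), 0.71 (Ifngr1/Ifngr2), 1.63 (Jak1/Jak2), 1.71 (Stat3/Stat5a), -0.88 (Stat3/Stat6) and -2.59 (Stat5a/Stat6). In the kallisto-type table they were 0.029, 1.14, 2.90, 3.59, 0.46 and -3.13 in the same order, with 0.87 for Jak1/Tyk2; the cause was not tested. No paired analysis was possible because there is 1 group.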
